A study of Mus musculus with 12 samples.

Results

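Potassium channel genes were followed across the cortex of tau transgenic and control mice by taking every transcript cluster whose probe annotation gives 1 gene symbol beginning with Kcn, leaving out Kcnj10. Where a symbol had several clusters, the one with the highest mean signal stood for it. Of 90 such genes, 54 had a log2 signal above 6.76 on at least 1 of 11 arrays, out of 12563 genes of the whole series that met the same threshold. The signal level alone chose these 54 genes, and 47 of them were above the threshold on all 11 arrays. Just inside it were Kcnh4, with a highest log2 signal of 6.92 (above the threshold on 3 arrays), Kcnk10 at 6.94 (2 arrays), Kcng1 at 7.02 (4 arrays), Kcnk12 at 7.03 (4 arrays), Kcnj11 at 7.03 (8 arrays), Kcne2 at 7.04 (5 arrays) and Kcnj2 at 7.19 (7 arrays). Just outside it were Kcnmb2 at 6.72, Kcnh2 at 6.68, Kcnd1 at 6.62 and Kcnk13 at 6.59.

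Transcripts were measured on 12 Clariom D microarrays. Tg mice were of the rTg4510 line, which carries human 0N4R tau with the P301L mutation behind a tetracycline-responsive element, driven in forebrain neurons by a tTA activator under the Camk2a promoter and shut off by doxycycline. Non mice were littermates labelled wild type, and the Tg line had been backcrossed to FVB/NJ, the strain of the Non mice. From 3.5 months of age the feed held 200 ppm doxycycline for 35 days (Dox) or none (Veh). The groups were Tg + Dox (3 arrays), Tg + Veh (3 arrays), Non + Dox (2 arrays, all from males) and Non + Veh (3 arrays). Tg + Dox 1, Tg + Veh 1, Tg + Veh 2 and Non + Veh 2 were also from males, and the other arrays were from females. In Non mice the feed shows doxycycline alone, whereas in Tg mice doxycycline and the loss of transgene expression come together. A further array, Tg + Veh replicate 4, was left out by the study's quality control, and its mean correlation with the other arrays was 0.9915, against 0.9951 to 0.9959 for the rest.

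Labels were checked before any comparison. Fgf14, which the tau transgene interrupts, ranged over 10.85 to 11.34 on Tg arrays, against 12.01 to 12.29 on Non arrays. Esyt2, at the insertion site of the tTA transgene, ranged over 9.45 to 9.74 on Tg arrays, but was also at 9.60 on Non + Veh 3 and 9.61 on Non + Dox 2, against 10.86 to 11.23 on the other Non arrays. Its neighbours divided the arrays in the same way: Ptprn2 was at 10.14 to 10.52 on Tg arrays, 10.44 on both of these Non arrays and 11.67 to 11.85 on the others, and Wdr60 at 6.55 to 6.78 on Tg arrays, 6.69 and 6.62 on these and 7.53 to 7.81 on the others. The Non groups may therefore not hold 1 genotype at this locus. Which alleles these 2 mice carried was not tested, every Tg over Non value below is against arrays as labelled, and results are also given without them. Markers of excitatory neurons, the main cells of cortex, had a mean log2 signal of 11.62 to 11.88 on the 11 arrays. In bulk tissue, fewer cells of a type and less RNA per cell cannot be told apart. Glial markers differed between groups: the mean of 11 microglial genes was 7.79 to 8.48 in Tg + Dox, 8.83 to 9.59 in Tg + Veh, 7.37 to 7.60 in Non + Dox and 7.46 to 7.60 in Non + Veh. The part of these shifts in the results on channel genes was not tested.

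Potassium channels let potassium leave neurons and so set the resting potential, end each spike and limit the rate of firing. The voltage-gated Kv families open on depolarization, and their pores are joined by partners that tune them: beta subunits for Kv1, KChIP proteins for Kv4, and silent Kv subunits, which form no channel alone but change the behaviour of Kv2. Calcium opens BK and SK channels, sodium opens Slack and Slick, G proteins open some inward rectifiers, and two-pore channels carry the resting leak.

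Most of these families were above the threshold in cortex. All annotated members passed for Kv2 (1), Kv3 (3), the Kv beta subunits (3) and the KChIP proteins (4). For Kv1, 6 of 8 genes passed, for the inward rectifiers 8 of 14, for Eag, Erg and Elk 5 of 8, for the silent subunits 5 of 10 and for the two-pore channels 7 of 14. Of the 5 Kcne genes, small subunits that ride on other channels, Kcne2 passed. Signals of different probes are not amounts that can be ranked, so each gene is compared only with itself. The median SD among the arrays of a group was 0.142 in Tg + Dox, 0.0822 in Tg + Veh, 0.125 in Non + Dox and 0.101 in Non + Veh for the Kcn genes, against 0.0919, 0.0848, 0.0711 and 0.0708 for all genes tested in the same groups. The median SD of the channel genes was thus above that of all genes in all groups but Tg + Veh. Signals equal on at least 2 arrays were held by 40.7% of the Kcn genes and 60.6% of all genes tested. The part of such equal values in these SDs was not tested. The heat map shows each gene on each array.

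**Figure D1:**
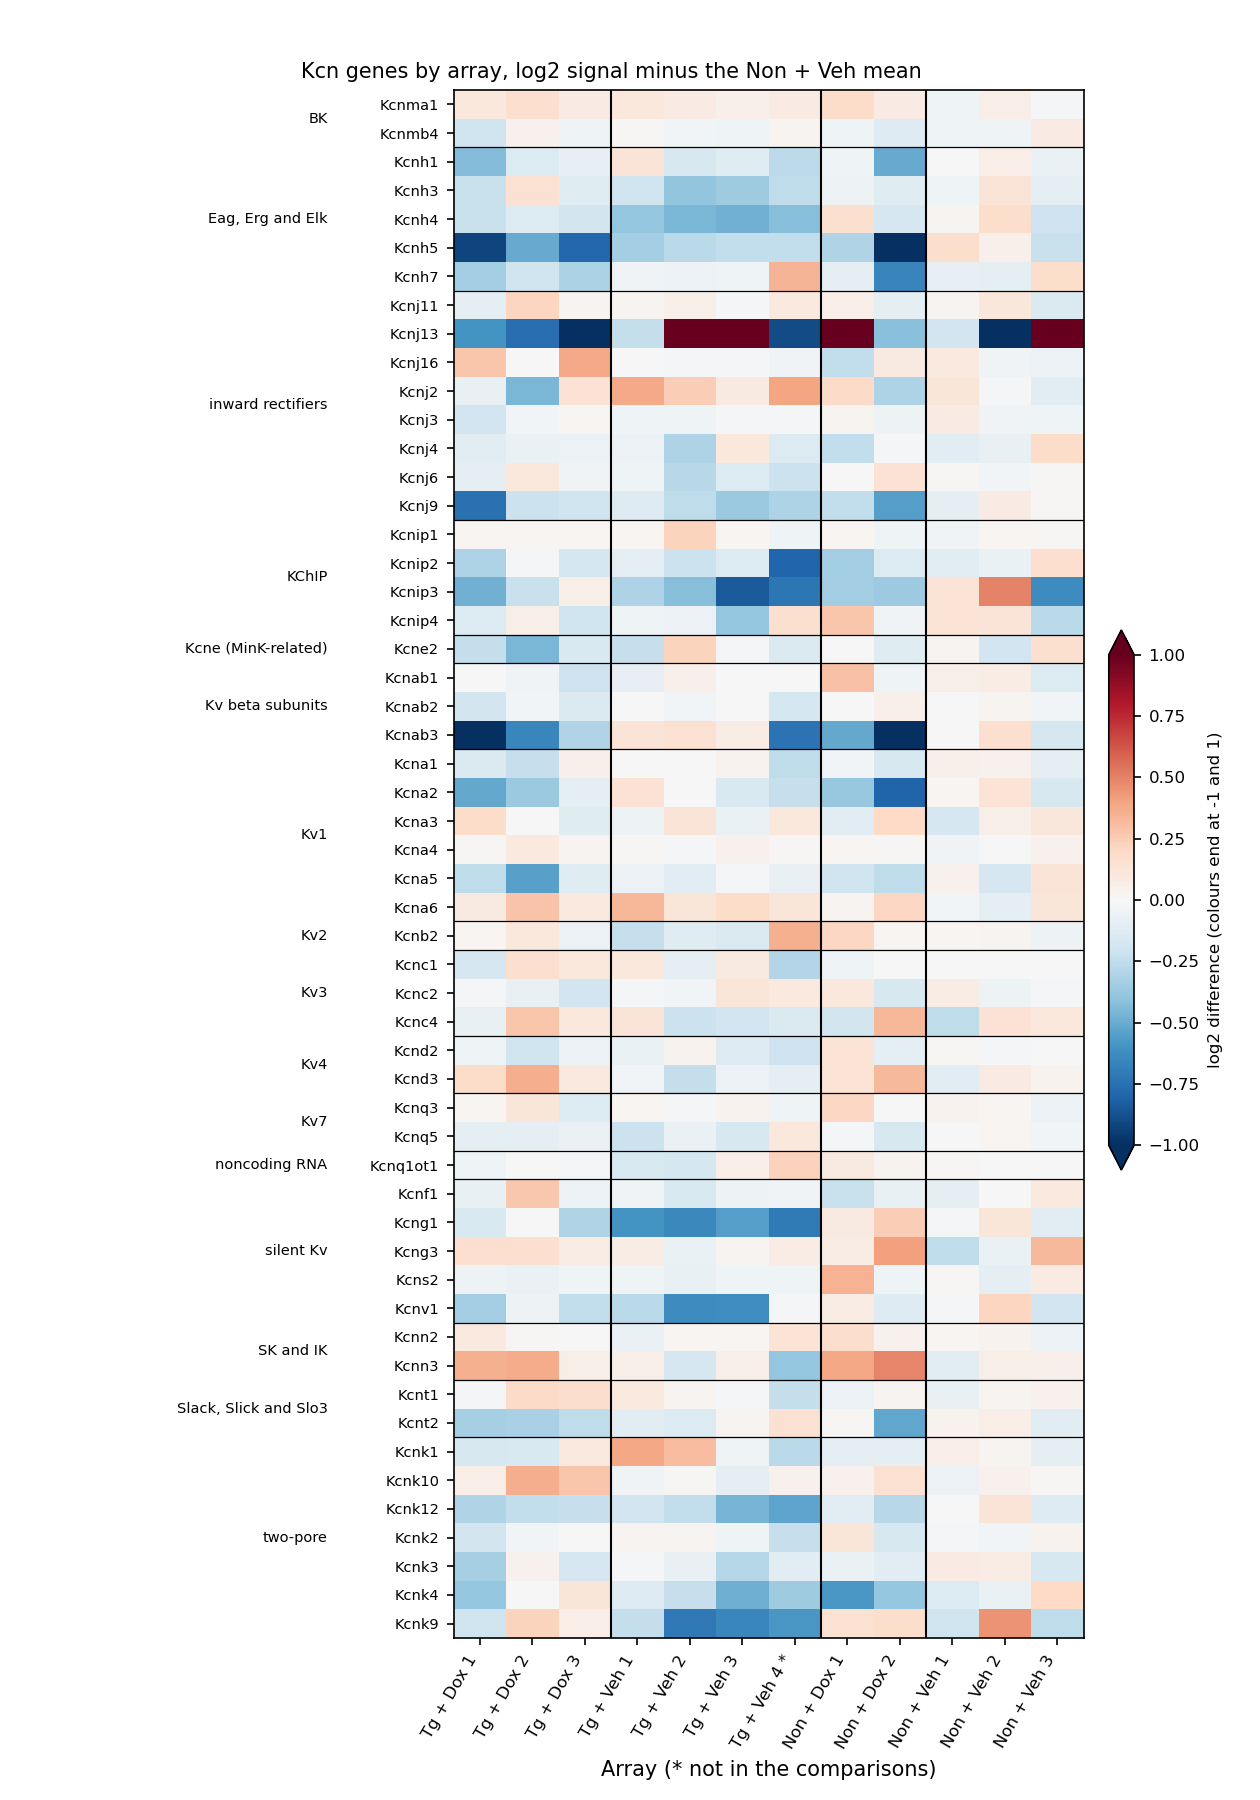
Log2 signal of the 54 Kcn genes, grouped by subfamily, on each of the 12 arrays, drawn as the difference from the mean of the 3 Non + Veh arrays. Kcng1 is blue on every Tg + Veh array, Kcnab3 and Kcnh5 are blue on the Dox arrays of both genotypes, and Kcnj13 runs to both ends of the scale within groups.

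Genotype as labelled was compared in Tg + Veh mice against Non + Veh mice. The test was 1 limma fit over the 4 groups, with Benjamini-Hochberg adjustment over the 12563 genes. Tg mice differ from Non mice in more than tau: Fgf14, which the transgene interrupts, was low in Tg + Dox too (10.85 to 11.19). The parts of tau and of the insertions in this comparison were not tested. Of the 54 channel genes, Kcng1 alone was called at an adjusted p under 0.05, and it was lower. Across all genes 1.98% were called (249 genes), and 0.135% were called lower. The change of 37 Kcn genes was below 0, with a median of −0.04 on the log2 scale, against a median of 0.02 over all genes tested and 40.5% of genes below 0. Among the 47 genes above the threshold on all arrays, 32 were below 0, with a median of −0.05. Groups did not overlap for 10 Kcn genes, all lower in Tg + Veh, against a background of 5.28% lower and 13.5% higher. Of these 10, Kcng1, Kcnh4 and Kcnk12 passed the threshold on only 3 or 4 arrays, and the other 7 were Kcnb2, Kcnh3, Kcnh5, Kcnj6, Kcnj9, Kcnq5 and Kcnv1. Among the genes above the threshold on all arrays, that made 14.9% of the channel genes and 5.1% of 11186 genes.

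Kcng1 encodes a silent subunit that pairs with Kv2 channels. Its log2 signal was 6.62, 6.78 and 6.47 in Tg + Dox, 6.17, 6.13 and 6.22 in Tg + Veh, 6.86 and 7.02 in Non + Dox, and 6.76, 6.89 and 6.67 in Non + Veh. The Tg + Veh arrays were the lowest of all and overlapped no other group, and the Tg + Dox arrays lay between them and the Non + Dox arrays. Against Non + Veh, Kcng1 in Tg + Veh was lower, with a difference of −0.60 on the log2 scale (SE 0.09, limma adjusted p = 0.0119), 0.66 of the Non + Veh signal. Over both feeds it was lower in Tg than in Non, with a difference of −0.46 (SE 0.07, adjusted p = 0.0242), where 0.796% of all genes were called. Within each feed its Tg arrays lay below its Non arrays, as for 0.716% of all genes, but across feeds Tg + Dox 2, at 6.78, lay above Non + Veh 3, at 6.67. Every Tg + Veh array was below the threshold, so the gene entered through the other groups and its call is not independent of the rule. With no threshold, over 30176 symbols, the adjusted p was 0.027 in Tg + Veh over Non + Veh and 0.0482 for Kcng1 over both feeds.

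The call on Kcng1 rested on few arrays. With Tg + Veh replicate 4, where Kcng1 was at 6.06, the change was −0.63 and the adjusted p 0.053. It was also lost without Non + Veh 1, without Non + Veh 2 or without Tg + Veh 2, and the adjusted p ranged from 0.00998 to 0.0568 over the 22 alternatives. Without Non + Veh 3 and Non + Dox 2 the change was −0.65 (adjusted p = 0.0362) in Tg + Veh over Non + Veh and −0.44 (adjusted p = 0.086) over both feeds, where 10 of 21 alternatives lost the call. Tg + Veh and Non + Veh also differ in sex. With sex as a term the change was −0.61 (limma adjusted p = 0.0282) in Tg + Veh over Non + Veh. Over both feeds it was −0.45 (limma adjusted p = 0.0567).

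Kcnv1, the other silent subunit with a low signal in Tg + Veh, is a brain subunit that likewise acts on Kv2 channels. It had log2 signals of 10.82, 11.12 and 10.93 in Tg + Dox, 10.90, 10.54 and 10.55 in Tg + Veh, 11.24 and 11.04 in Non + Dox, and 11.15, 11.38 and 10.98 in Non + Veh. Kcnv1 differed by −0.51 in Tg + Veh over Non + Veh and did not pass the test (SE 0.13, adjusted p = 0.118). Replicate 4, at 11.15, lay above every other Tg + Veh array. Kcnf1, Kcng3 and Kcns2 differed by −0.08 to 0.01, and none of them was called. Kcnb2, a pore subunit of the Kv2 family that they join, differed by −0.17 (adjusted p = 0.287), with 8.33, 8.43 and 8.41 in Tg + Veh against 8.57, 8.59 and 8.51 in Non + Veh. Replicate 4 was at 8.91 for Kcnb2, above all 11 other arrays.

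All 5 genes of the Eag, Erg and Elk channels had a difference below 0 between Tg + Veh and Non + Veh, with a median of −0.28, and none passed the test. Kcnh4, an Elk channel gene of brain, was at 6.53, 6.61 and 6.56 in Tg + Dox, 6.36, 6.29 and 6.26 in Tg + Veh, 6.91 and 6.58 in Non + Dox, and 6.78, 6.92 and 6.54 in Non + Veh. Kcnh4 differed by −0.44 in Tg + Veh over Non + Veh (SE 0.10, adjusted p = 0.0774). Both Non arrays at the Tg level of Esyt2 had the lowest Kcnh4 of their groups, and without them the change was −0.54 and passed the test (adjusted p = 0.0205). Kcnh4 passed the threshold on Non arrays alone, so its difference is not independent of the rule either. Kcnh3, the forebrain Elk channel, was at 9.12, 8.92 and 8.96 in Tg + Veh against 9.27, 9.45 and 9.23 in Non + Veh, a difference of −0.32 (adjusted p = 0.202). Kcnh1 and Kcnh7 differed by −0.05 each and Kcnh5 by −0.28, and Kcnh2 was under the threshold.

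Among two-pore channels, Kcnk9, an acid-sensitive leak channel, had log2 signals of 11.30, 11.71 and 11.56 in Tg + Dox, 11.26, 10.78 and 10.84 in Tg + Veh, 11.65 and 11.67 in Non + Dox, and 11.29, 11.94 and 11.24 in Non + Veh. Against Non + Veh, Tg + Veh differed by −0.53 (SE 0.20, adjusted p = 0.282), and Tg + Dox differed from Tg + Veh by 0.57 (adjusted p = 0.227). Neither passed the test, and Tg + Veh 1 lay within the Non + Veh range. Without Non + Veh 2 the first difference was −0.31. Kcnk12 differed by −0.30 (adjusted p = 0.154) and Kcnk4 by −0.28 (adjusted p = 0.457). The mean of Kcnk12 was 6.59 in Tg + Veh, below the threshold, and 6.90 in Non + Veh, and it passed on only 4 arrays. Its difference is thus not independent of the rule either. Kcnk1, a two-pore channel also found in astrocytes, differed by 0.22 (adjusted p = 0.451).

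None of the pore genes of Kv1, Kv3, Kv4 and Kv7 was called. Their differences in Tg + Veh were −0.06 to 0.21 for the 6 Kv1 genes, −0.09 to 0.03 for the 3 Kv3 genes, −0.11 and −0.05 for Kcnd3 and Kcnd2 of Kv4, and −0.15 and 0.01 for Kcnq5 and Kcnq3, whose channels carry the M current. Kcnma1, the BK pore, differed by 0.08. Kcnip3, a KChIP that binds calcium and Kv4 channels, had a difference of −0.53, but its 3 Non + Veh arrays spread over 13.32, 13.68 and 12.55 and the 95% interval was −1.13 to 0.08. The difference was −0.28 without Non + Veh 2 and −0.84 without Non + Veh 3. The 95% interval of a Kcn gene reached a median of 0.223 to each side on the log2 scale in this comparison, which is the precision that this number of arrays gave.

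**Figure D2:**
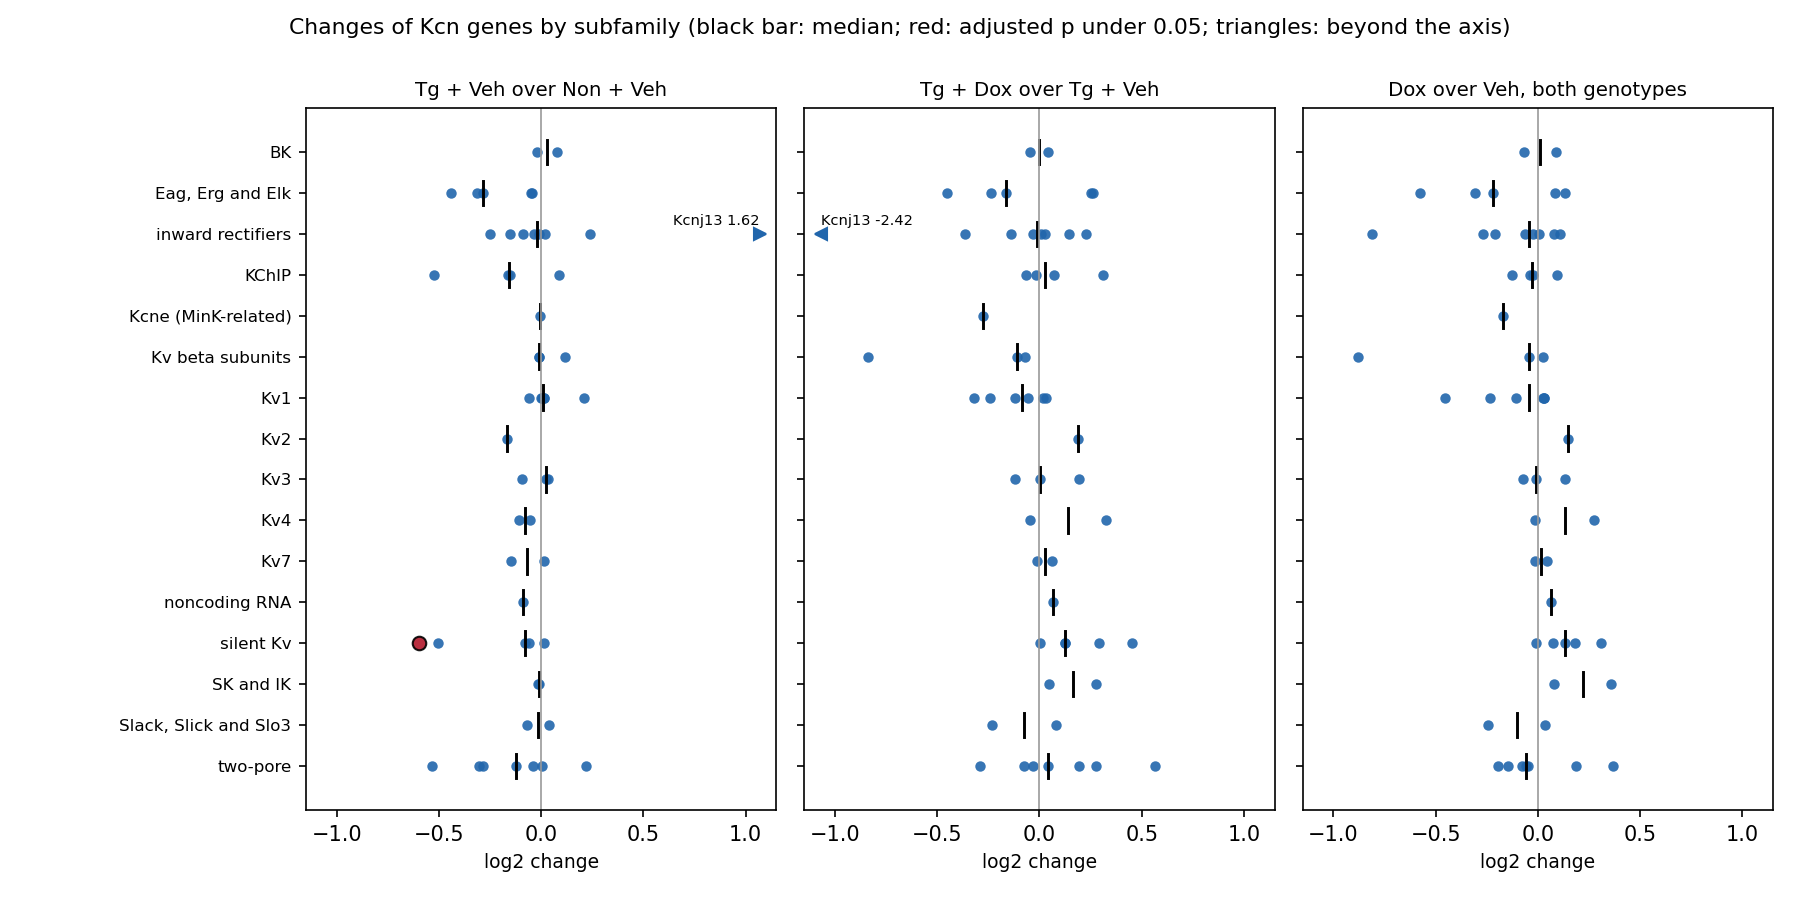
Log2 change of each of the 54 Kcn genes by subfamily in Tg + Veh over Non + Veh, in Tg + Dox over Tg + Veh and in Dox over Veh over both genotypes. Points are genes, black bars are medians of a subfamily, and the red point is Kcng1, called in Tg + Veh over Non + Veh at −0.60. Kcnj13 lies beyond the axis at 1.62 and −2.42.

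Suppression of the tau transgene was asked of Tg + Dox mice against Tg + Veh mice, which share the Tg + Veh arrays with the comparison above. The paper reports that this feed lowered tau protein only in part, so tau was not absent in Tg + Dox. No Kcn gene was called by limma, against 0.693% of all genes (87 genes), and 13 Kcn genes had an unadjusted p under 0.05, 24.1% against 16.0% of all genes. Groups did not overlap for 12 Kcn genes, 6 higher and 6 lower in Tg + Dox, against 5.31% of all genes higher and 11.7% lower. Of the 6 that were higher, Kcng1, Kcnh4 and Kcnk10 were below the threshold on every Tg + Veh array, and Kcnk10 was above it on 2 Tg + Dox arrays alone, so they are not independent of the rule. Among the genes above the threshold on all arrays, 3 of 47 did not overlap and were higher, 6.38% against 5.19% of 11186 genes, and 6 were lower, 12.8% against 11.5%. In that set 10 of 47 had an unadjusted p under 0.05, 21.3% against 15.6%. The median change was 0.01 for the Kcn genes and −0.02 for all genes. Kcng1 was nearest to a call, at 0.45 (SE 0.09, adjusted p = 0.0582), and without Tg + Dox 3 it passed, at an adjusted p of 0.0355. Side by side, the changes in Tg + Veh over Non + Veh and in Tg + Dox over Tg + Veh were −0.60 and 0.45 for Kcng1, −0.44 and 0.26 for Kcnh4, −0.32 and 0.25 for Kcnh3, −0.51 and 0.29 for Kcnv1 and −0.53 and 0.57 for Kcnk9. Of these, only Kcnk9 had Tg + Veh arrays that overlapped Non + Veh. For the remaining genes whose Tg + Veh arrays all lay below Non + Veh, the same changes were −0.17 and 0.19 for Kcnb2, −0.28 and −0.45 for Kcnh5, −0.15 and 0.14 for Kcnj6, −0.25 and −0.14 for Kcnj9, −0.30 and 0.04 for Kcnk12, and −0.15 and 0.06 for Kcnq5. Kcnh5 and Kcnj9 were thus below 0 in both. Since both comparisons use the Tg + Veh arrays, opposite signs are not independent of each other.

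In Tg + Dox against Non + Dox 0 of the 12563 genes were called by limma (smallest adjusted p = 0.162). Of the Kcn genes, 4 had an unadjusted p under 0.05, 7.41% against 6.01% of all genes. Kcng1 was at −0.32 (adjusted p = 0.69). It was among 6 Kcn genes whose groups did not overlap and that were lower in Tg + Dox, and 1 was higher. Among the genes above the threshold on all arrays, which leaves out Kcng1, 8.51% of Kcn genes and 8.59% of all did not overlap and were lower. For higher these shares were 2.13% and 6.06%. Non + Dox over Non + Veh had no call either (smallest adjusted p = 0.232), with 8 Kcn genes at an unadjusted p under 0.05, 14.8% against 10.6% of all genes. Whether the feed effect differed between Tg and Non was tested as an interaction. No gene was called (smallest adjusted p = 0.0873), and 2 Kcn genes had an unadjusted p under 0.05, 3.70% against 8.23%. Of those, the smaller p was that of Kcnk4, a stretch-sensitive two-pore channel, at 0.68 (adjusted p = 0.522).

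The feed was then compared over both genotypes. Of the Kcn genes 0 were called by limma, against 0.501% of all genes (63 genes), and 15 Kcn genes had an unadjusted p under 0.05, 27.8% against 17.5% (13 of 47, 27.7% against 17.1%, among the genes above the threshold on all arrays). The study's methods used a two-way test per gene at an unadjusted p of 0.01. It was passed in some term by 7 Kcn genes, 13.0% against 8.08% of all genes, and after Benjamini-Hochberg adjustment by none, against 0.0637% of all genes. The genotype term was passed by Kcng1 and Kcnh4, 3.70% of Kcn genes and 3.77% of all. The feed term was passed by 6 genes, 11.1% against 5.13% (5 of 47, 10.6% against 5.01%, among the genes above the threshold on all arrays). These were Kcnab3, Kcna2 and Kcnh5, which were lower with Dox, and Kcnn3, Kcnd3 and Kcng1, which were higher. Groups did not overlap within either genotype for Kcnab3, Kcnh5 and Kcna5, lower with Dox, against 2.24% of all genes, and for Kcnd3, higher with Dox, against 1.96%. None passed the interaction term, against 1.46% of all genes.

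Markers of other regions and cell types were compared by feed as well. Over both genotypes, the only ones called were 2 oligodendrocyte markers. Of 8 listed hippocampal markers, 2 were tested, and their mean was 9.32, 9.40 and 8.98 in Tg + Dox, 8.98, 9.01 and 8.96 in Tg + Veh, 9.42 and 9.58 in Non + Dox, and 9.09, 8.90 and 8.89 in Non + Veh. Only Tg + Dox 3 lay among the Veh arrays. Neither gene was called: Wfs1 differed with feed by 0.75 (adjusted p = 0.0665) and Prox1 by 0.04 (adjusted p = 0.814). Prox1 differed by −0.22 in Tg + Dox over Tg + Veh and by 0.30 in Non + Dox over Non + Veh. Over both genotypes, the median feed difference was −0.36 for oligodendrocyte markers, of which 2 were called lower, and −0.42 for microglial markers. It was −0.60 for choroid plexus, −0.20 for thalamic and −0.02 for excitatory neuron markers. These medians joined unlike values in Tg and Non mice. In Tg and in Non they were −0.92 and −0.03 for microglial, −1.37 and −0.02 for choroid plexus, and −0.49 and −0.15 for oligodendrocyte markers. For thalamic markers they were −0.20 and −0.07, and for excitatory neuron markers 0.13 and −0.16. The part of tissue composition in the feed differences of the channel genes was not tested.

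Kcnab3, a beta subunit of Kv1 channels, showed the widest gap of these. Its log2 signal was 8.23, 8.80 and 9.15 in Tg + Dox, 9.58, 9.60 and 9.52 in Tg + Veh, 8.94 and 8.13 in Non + Dox, and 9.46, 9.62 and 9.27 in Non + Veh. All 5 Dox arrays were below all 6 Veh arrays, and the Dox arrays were also the more spread. The change was −0.88 (SE 0.19, adjusted p = 0.075) over both genotypes, −0.84 in Tg + Dox over Tg + Veh and −0.92 in Non + Dox over Non + Veh. Replicate 4 of Tg + Veh, on feed without doxycycline, was at 8.71, among the Dox arrays.

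Kcna2 encodes a Kv1 pore of axons, with which Kv1 beta subunits assemble. It was at 12.21, 12.35 and 12.63 in Tg + Dox, 12.87, 12.72 and 12.57 in Tg + Veh, 12.34 and 11.92 in Non + Dox, and 12.74, 12.86 and 12.56 in Non + Veh, and Tg + Dox 3 overlapped the Veh arrays. The change over both genotypes was −0.46 (SE 0.11, adjusted p = 0.0908). The other Kv1 and beta subunit genes ranged from −0.24 for Kcna5 to 0.03 for Kcna3, Kcna4, Kcna6 and Kcnab1.

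Kcnh5 encodes an Eag channel. It was at 11.30, 11.72 and 11.44 in Tg + Dox, 11.89, 11.95 and 11.98 in Tg + Veh, 11.92 and 11.11 in Non + Dox, and 12.40, 12.27 and 12.001 in Non + Veh. The Dox and Veh groups did not overlap within either genotype. The change was −0.58 (SE 0.15, adjusted p = 0.10), −0.37 without Non + Dox 2 and −0.78 without Non + Dox 1. Non + Dox 2 was the lowest of the 11 arrays for Kcnh5, Kcna2, Kcnab3, Kcnh7 and Kcnt2, and Tg + Dox 1 was the lowest in its own group for each of them. Both arrays are from males, and Tg + Dox 1 is the only male of its group. Non + Dox 1 is from a male as well, with Kcnh5 at 11.92. The male Veh arrays Tg + Veh 1, Tg + Veh 2 and Non + Veh 2 were at 11.89, 11.95 and 12.27. Non + Dox 2 also had Esyt2 at the Tg level.

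Of the genes that were higher with Dox, Kcnn3 encodes a small-conductance channel opened by calcium after a spike. It was at 8.19, 8.21 and 7.90 in Tg + Dox, 7.90, 7.67 and 7.90 in Tg + Veh, 8.23 and 8.32 in Non + Dox, and 7.72, 7.90 and 7.89 in Non + Veh. Only Tg + Dox 3 reached down to the Veh arrays, and replicate 4 of Tg + Veh was at 7.45. The change was 0.36 (SE 0.07, adjusted p = 0.0705). Kcnd3, a Kv4 pore of the transient A-type current, was at 8.63, 8.81 and 8.53 in Tg + Dox, 8.41, 8.20 and 8.38 in Tg + Veh, 8.58 and 8.76 in Non + Dox, and 8.32, 8.52 and 8.48 in Non + Veh. All 5 Dox arrays were above all 6 Veh arrays, by a mean of 0.28 (SE 0.07, adjusted p = 0.0973), whereas Kcnd2, the other Kv4 gene, differed by −0.01.

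Calls for feed turned on single arrays. Without Tg + Dox 3, Kcna2, Kcnab3, Kcng1 and Kcnn3 were called by limma, and without Non + Dox 1, Kcnh5, Kcnh7 and Kcnt2 were. Over the 11 fits that each left out 1 array, the two-way test was passed in some term by Kcng1 in 11, Kcnn3 in 10, Kcnab3 in 6, Kcna2 in 4, Kcnd3 in 2 and Kcnh5 in 1. Without Non + Dox 2 it was passed by Kcnb2, Kcng1, Kcnh4 and Kcns2, and by none of Kcnab3, Kcna2, Kcnh5, Kcnn3 and Kcnd3. With the replicate number as a block it was passed by Kcng1 and Kcnk10. Without Non + Veh 3 and Non + Dox 2 none was called, at changes of −0.72 for Kcnab3, −0.39 for Kcna2, −0.43 for Kcnh5, 0.35 for Kcnn3 and 0.24 for Kcnd3. Non + Dox holds males only and Non + Veh 1 male and 2 females, so that this pair of groups differs in sex as well as feed. Tg + Veh 1 and Tg + Veh 2 are from males, whereas in Tg + Dox only Tg + Dox 1 is, so that this pair differs in sex too. With sex as a term the changes were −0.86 for Kcnab3, −0.47 for Kcna2, −0.56 for Kcnh5, 0.35 for Kcnn3 and 0.28 for Kcnd3, and none was called.

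**Figure D3:**
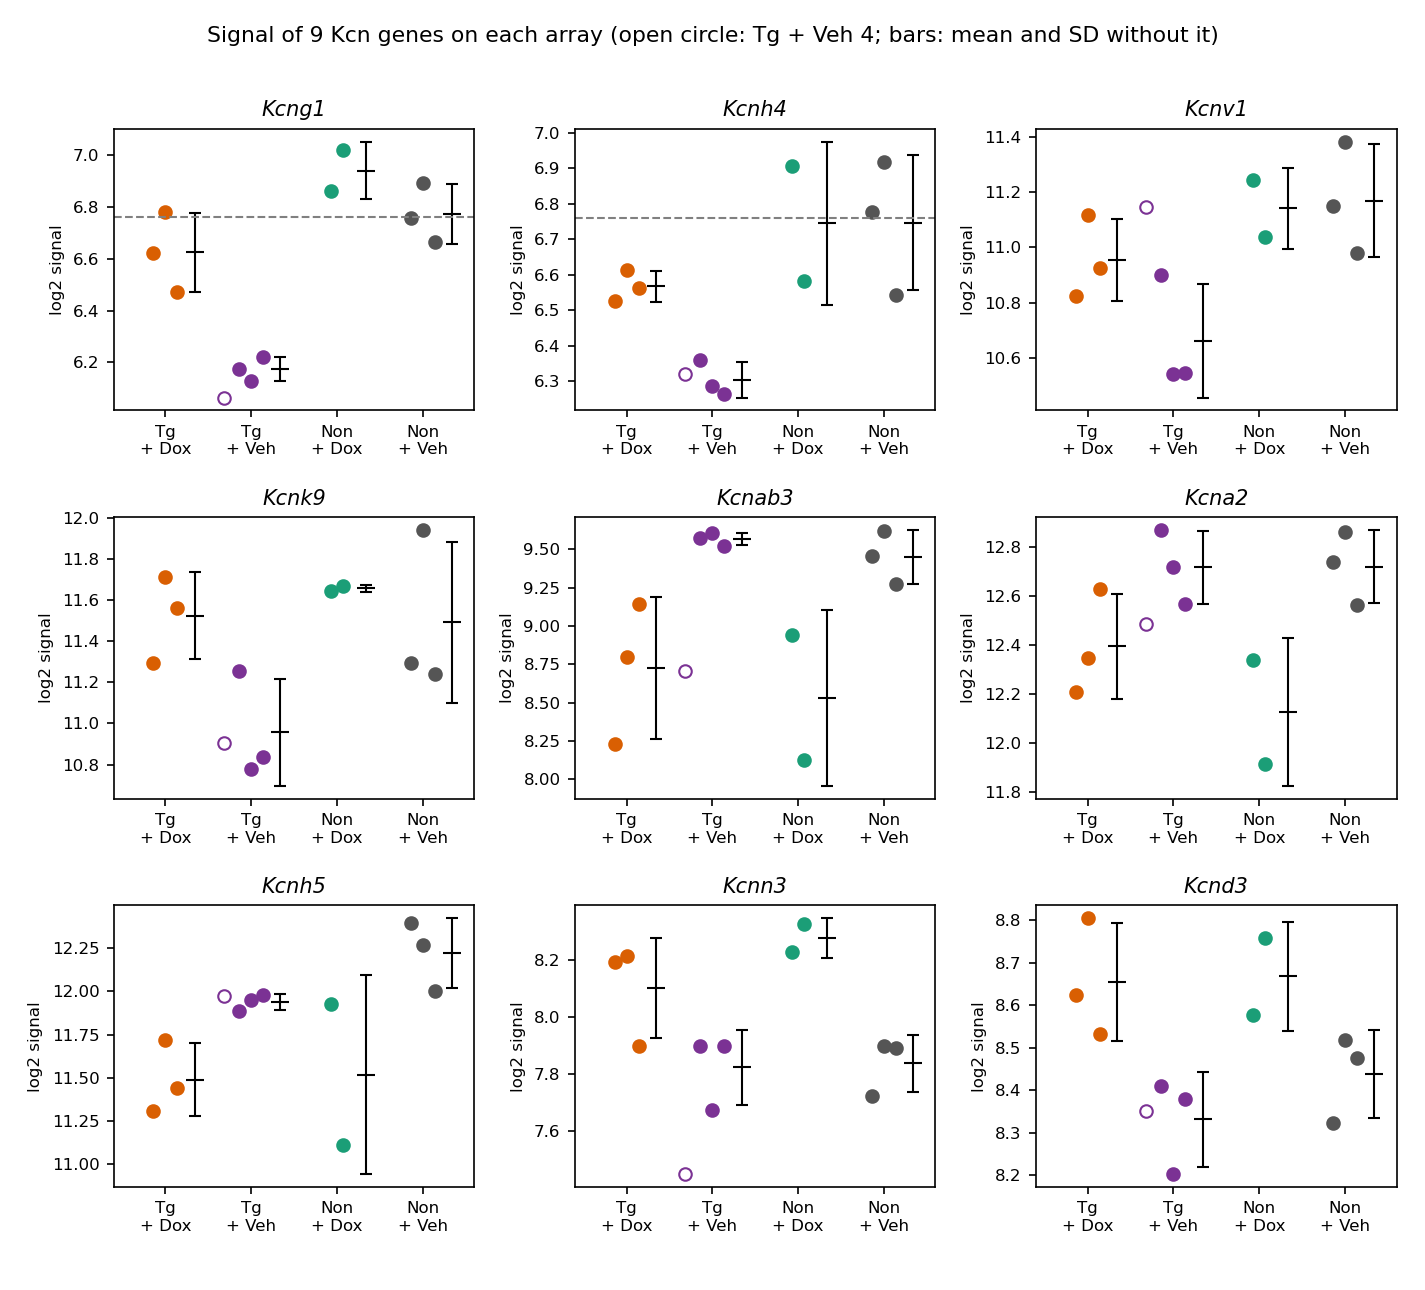
Log2 signal of 9 Kcn genes on each array by group, with the mean and SD of each group over the 11 arrays beside the points and Tg + Veh replicate 4 as an open circle. The dashed line marks the threshold of 6.76 in the panels of Kcng1 and Kcnh4. The Tg + Veh points of Kcng1 (6.13 to 6.22) lie below the points of the other groups, and the Dox points of Kcnab3 (8.13 to 9.15) lie below all Veh points of the 11 arrays.

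Promoters are shown for the 4 genes that passed the feed term at an unadjusted p of 0.01 and have a RefSeq window in the table at hand. Their estimated changes with feed had opposite directions (Kcna2 and Kcnh5 lower, Kcnd3 and Kcnn3 higher), but none of them was called by limma. Each is the 250 bases before 1 annotated start in GRCm38.p6, 5′ to 3′ on the gene's strand, with the GC box GGGCGG and the box CCAAT in capitals where either was found on either strand.
Kcna2, chr3:107101317-107101566, + strand: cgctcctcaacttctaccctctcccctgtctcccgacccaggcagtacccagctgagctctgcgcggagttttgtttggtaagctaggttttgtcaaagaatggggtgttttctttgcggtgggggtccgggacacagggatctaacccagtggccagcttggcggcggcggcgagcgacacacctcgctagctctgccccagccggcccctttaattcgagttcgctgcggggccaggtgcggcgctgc
Kcnh5, chr12:75177333-75177582, - strand: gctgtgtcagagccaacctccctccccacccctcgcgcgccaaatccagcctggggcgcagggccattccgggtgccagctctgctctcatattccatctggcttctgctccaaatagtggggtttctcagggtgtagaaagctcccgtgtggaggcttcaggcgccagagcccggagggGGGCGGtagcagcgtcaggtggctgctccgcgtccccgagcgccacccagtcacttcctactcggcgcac
Kcnd3, chr3:105451640-105451889, + strand: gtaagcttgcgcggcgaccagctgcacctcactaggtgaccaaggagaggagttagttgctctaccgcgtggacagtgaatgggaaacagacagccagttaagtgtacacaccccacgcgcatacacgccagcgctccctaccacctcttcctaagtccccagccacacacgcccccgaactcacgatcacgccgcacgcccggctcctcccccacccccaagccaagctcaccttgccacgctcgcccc
Kcnn3, chr3:89519914-89520163, + strand: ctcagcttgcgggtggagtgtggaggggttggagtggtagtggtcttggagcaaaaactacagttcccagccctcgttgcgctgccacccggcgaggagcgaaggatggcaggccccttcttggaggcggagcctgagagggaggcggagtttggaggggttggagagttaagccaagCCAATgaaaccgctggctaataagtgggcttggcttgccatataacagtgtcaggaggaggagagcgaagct
Kcnh5 held 1 GC box and Kcnn3 held 1 CCAAT, and neither motif was found in the windows of Kcna2 and Kcnd3. Of 32851 promoter windows of the same length, 32.7% held the GC box and 33.8% CCAAT, against 42.9% and 34.9% of 63 windows of 41 Kcn genes. G and C made up 62.4% of the Kcna2 window, 65.6% of Kcnh5, 62.8% of Kcnd3 and 58.8% of Kcnn3. The median was 58.8% over the 63 Kcn windows and 52.4% over all windows. Kcng1 and Kcnab3 have no window in the table used here.

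The largest differences between groups were those of Kcnj13, an inward rectifier of the choroid plexus, the epithelium that makes cerebrospinal fluid. Kcnj13 was at 7.69, 7.53 and 7.24 in Tg + Dox, 8.05, 11.21 and 10.47 in Tg + Veh, 10.31 and 7.87 in Non + Dox, and 8.10, 7.17 and 9.60 in Non + Veh. It was high on some arrays of 3 groups and on none of Tg + Dox. Neither the difference of 1.62 between Tg + Veh and Non + Veh (SE 0.93, adjusted p = 0.492) nor that of −2.42 between Tg + Dox and Tg + Veh (adjusted p = 0.252) passed the test, and leaving out 1 array at a time moved them over 0.97 to 2.55 and −3.35 to −1.77. Ttr, the defining transcript of choroid plexus, was at 11.63, 9.92 and 8.12 in Tg + Dox, 9.93, 15.27 and 14.41 in Tg + Veh, 14.77 and 9.21 in Non + Dox, and 12.49, 10.87 and 14.64 in Non + Veh. The 4 arrays on which Kcnj13 was at 9.60 to 11.21 were those with the highest Ttr, as the plot of Kcnj13 against Ttr shows. The mean of the 4 choroid plexus genes tested, of 8 listed, was 6.44 to 7.45 in Tg + Dox, 6.97 to 9.57 in Tg + Veh, 6.84 and 8.96 in Non + Dox, and 7.23 to 8.87 in Non + Veh. Folr1, another choroid plexus marker, was below the threshold on all arrays, at 4.43 to 5.11. It too was highest on the 4 arrays with high Kcnj13, at 4.93 to 5.11, against at most 4.60 on the others. The choroid plexus genes Kl, Clic6 and Otx2 were also highest on those arrays, whereas Aqp1 and Kcne2 were not on all of them. Kcne2, a small subunit also of that epithelium, was at 6.58, 6.36 and 6.66 in Tg + Dox and 6.59, 7.04 and 6.81 in Tg + Veh (change −0.28, adjusted p = 0.341). The part of choroid plexus tissue in these differences was not tested. Leaving Kcnj13 out, the median of the Kcn genes in Tg + Veh over Non + Veh was −0.05.

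**Figure D4:**
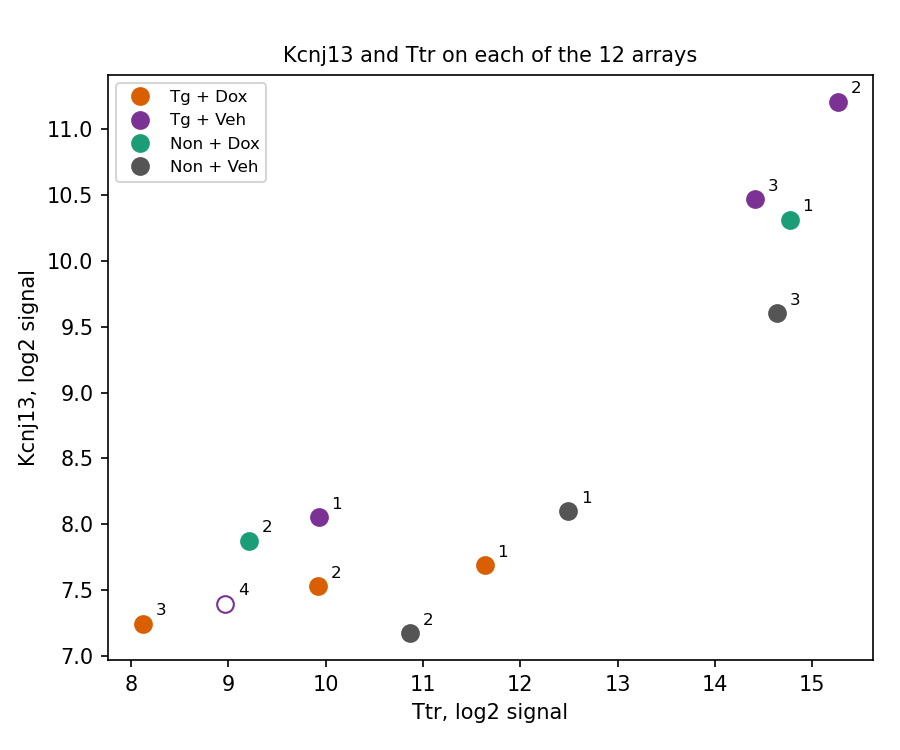
Log2 signal of Kcnj13 against log2 signal of Ttr on the 12 arrays, with replicate numbers beside the points and Tg + Veh replicate 4 as an open circle. Tg + Veh 2 and 3, Non + Dox 1 and Non + Veh 3 lie at the upper right, and no Tg + Dox array does.

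None of the other inward rectifiers was called. Kcnj3, Kcnj6 and Kcnj9, the pores of the channels that G proteins open, differed in Tg + Veh by −0.03, −0.15 and −0.25, and Kcnj11, the pore of the channel that ATP closes, by 0.02, none of them called. Of 10 channel genes known in glia and vessels, 5 were tested and none was called in any comparison. Kcna3, a microglial and T cell channel, differed by 0.00 in Tg + Veh, while 7 of 11 microglial markers were called higher. Kcnj2 differed by 0.24 (adjusted p = 0.579), Kcnk1 by 0.22, Kcnk2 by 0.01 and Kcnj16, found in astrocytes, by −0.01. Kcnj16 was at 7.46, 7.19 and 7.56 in Tg + Dox, against 7.19, 7.17 and 7.17 in Tg + Veh, a change of 0.23 (adjusted p = 0.337).

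Proteins that anchor or modify these channels were counted in the same fit. Of 44 listed partner genes, 29 were tested and none was called by limma in any comparison, with a median of −0.02 between Tg + Veh and Non + Veh and 0.02 between Tg + Dox and Tg + Veh. The two-way test was passed by 4, 13.8% against 8.08% of all genes. Dpp6, an extracellular partner of Kv4, was at 12.22, 12.30 and 12.33 in Tg + Dox, 11.94, 12.07 and 12.04 in Tg + Veh, 12.27 and 12.47 in Non + Dox, and 12.18, 12.26 and 12.18 in Non + Veh. It was lowest on the Tg + Veh arrays, and its change with feed was 0.22 (adjusted p = 0.075). Cntn2, which helps to gather Kv1 channels beside the nodes of axons, had a change of −0.25 with feed (adjusted p = 0.0772) and 0.21 with genotype (adjusted p = 0.135). The feed difference was 0.20 for Dlg3, a scaffold (adjusted p = 0.083), and 0.105 for Flna, an actin binder (adjusted p = 0.171).

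The 36 channel genes under the threshold were fitted without it, and none was called in any of the 7 comparisons, with 0 to 4 of them at an unadjusted p under 0.05. In Tg + Veh against Non + Veh this was 4 of 36, 11.1% against 9.43% of all 30176 symbols, and in Tg + Dox against Tg + Veh 0, against 10.8%. The smallest adjusted p from limma in Tg + Veh against Non + Veh was 0.137, for Kcne1l.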

How the data were processed

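The deposited values are log2 signals of transcript clusters, which the authors computed with RMA from Clariom D arrays of mouse cortex, per the labels and the study's methods. The genome build behind the probe annotation is not given in the sources used here, and the promoter windows come from RefSeq on GRCm38.p6. Of 65956 transcript clusters, a platform annotation gave 30638 a single symbol, 2176 several and 33142 none. The cluster with the highest mean was kept for each of 30176 symbols, and 12563 passed 6.76 on at least 1 of 11 arrays. One model over 4 groups was fitted with limma 3.58.1 in R 4.3.3 (lmFit and eBayes), without covariates, for 7 contrasts, and checked on simulated data. Genes were called at a Benjamini-Hochberg adjusted p under 0.05. The methods' two-way test was run at 0.01. Named genes were those called or past the two-way test, the largest change in each subfamily in 3 contrasts, those nearest the threshold, Kcn genes known in glia and vessels, and partners called or past the two-way test; others named were chosen after their values were seen. Members and lists were chosen with earlier results of these data known. The number of arrays limits precision, and the number of mice behind an array is not given in the sources used here, so a p measures the spread between these samples. Alternatives covered arrays, threshold, clusters per symbol, normalization, variance prior, sex, replicate block and samples in the fit. Figures were drawn with matplotlib 3.10.9.

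Marker lists gave these median log2 changes in Tg + Veh over Non + Veh: 1.48 for microglia, 0.38 for astrocytes and 0.43 for oligodendrocytes, with 7, 5 and 4 genes called higher. No gene of the other lists was called in that comparison. The medians there were −0.04 for endothelial and mural cells, −0.16 for excitatory neurons, 0.16 for inhibitory neurons, −0.12 for all neurons, 0.01 for striatum, 0.17 for thalamus, 0.02 for hippocampus and 0.57 for choroid plexus.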

Additional observations from a re-analysis of the deposited data

Results flagged for a closer look

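Kcnab3, the Kv1 beta subunit gene, was at 8.71 on Tg + Veh replicate 4, against 9.58, 9.60 and 9.52 on the other Tg + Veh arrays. The gap to the nearest of them exceeded the 95% critical value of Dixon's test (0.829 of the range for 4 samples). Of 18 named Kcn genes tested in this way, this was 1 flag, and chance flags about 1 in 20 groups. The array is the one that the study's quality control left out, and with it the change of Kcnab3 over both genotypes was −0.77 (adjusted p = 0.147 from limma).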

How the results depend on the processing

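The count of Kcn genes called in Tg + Veh over Non + Veh, 1 in the 11 arrays, was 0 with all 12 arrays, 0 with the threshold required on all 11 arrays (Kcng1 is then not tested) and 2 without both Non arrays at the Tg level of Esyt2, and 0 to 2 when 1 array at a time was left out. Over both feeds, the count for Tg over Non, also 1, was 0 with 12 arrays, with the threshold on all 11, with sex as a term, with the replicate block and by the two-way test after Benjamini-Hochberg, 2 by that test at 0.01, and 0 to 1 leaving out an array. For Dox over Veh, 0 became 6 by the two-way test at 0.01 and 0 to 4 leaving out an array, and for Tg + Dox over Tg + Veh, 0 to 1. The 7 genes past the two-way test became 4 with arrays centred on their median, 13 after quantile normalization again and 2 to 8 leaving out an array. With the replicate number as a block the two-way count was 2, and no other call of a comparison changed but the one on Tg over Non. Whether the numbers pair the samples could not be decided. The correlation of same-numbered arrays ran from −0.304 to 0.407, with 4 of 15 over 0.1. For other-numbered arrays it ran from −0.404 to 0.356, with 10 of 30 over 0.1. With so few arrays in a group these values are tied to each other. The 2 Non + Dox arrays had equal values of opposite sign with every array of the other groups, such as 0.0678 and −0.0678 with Non + Veh 1. Counts over all genes moved more. For feed, 63 became 12 with a trended variance prior (11 if also robust), 17 with 12 arrays, 15 with arrays centred, 37 after quantile normalization and 0 without both Non arrays, without the threshold, with sex or with the block. For Tg + Veh over Non + Veh, 249 became 1 with 12 arrays, 125 without both Non arrays, 148 without the threshold, 122 with the block and 49 with only those groups. For Tg + Dox over Tg + Veh, 87 became 0, 3, 8, 11 and 1 in these settings and 34 with sex. For Tg over Non, 100 became 1 with 12 arrays, 28 without both Non arrays, 45 without the threshold, 66 with it on all arrays, 40 with sex and 7 with the block. Leaving out an array gave 0 to 285 for feed, 64 to 247, 3 to 176 and 5 to 137 for the others in this order. Where Non + Dox is left with 1 array, it is assumed to vary like the other groups. Some uncalled differences turned sign. In Tg + Veh over Non + Veh, Kcnab3 was −0.0974 with 12 arrays, and Kcnn3 was 0.0114 without both Non arrays and −0.0718 to 0.0607 leaving out an array. Leaving out an array, Kcnmb4 was −0.1034 to 0.0193 in Tg + Dox over Tg + Veh and Kcnq3 −0.0066 to 0.097 for feed. Kcnj13 for feed was 0.129 without both Non arrays. Values of named genes kept direction and side of the threshold in 890 settings, lost the call in 14, gained one in 10 and turned sign in 8. Causes were not tested.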

Other observations

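Some genes had signals equal to 6 decimals on several arrays. The channel gene with most such values was Kcnip1, a KChIP of Kv4 channels, at 7.34 on 7 of the 11 arrays from all 4 groups. Kcnc1, a Kv3 pore of fast-spiking cells, was at 9.20 on 3 Non + Veh arrays and 1 Non + Dox array, and Kcns2, a silent subunit, at 6.87 on 4 arrays. At least 4 equal values were held by 3 of the 54 Kcn genes (5.56%) and by 3652 of all 12563 genes tested (29.1%).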
